A study of Homo sapiens with 4 samples.

Results

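The genes described here are long noncoding RNAs (lncRNAs) and 1 transcribed pseudogene. They are of 3 kinds: host genes whose introns or exons carry small RNAs, intergenic genes named LINC, and MALAT1. They were taken from the deposited table as rows with a biotype other than protein-coding and a symbol that begins with LINC or SNHG, that begins with MIR and ends in HG, or that is GAS5, ZFAS1, DANCR, MALAT1 or NEAT1, leaving out antisense names. The rule found 60 of the 6828 listed genes: 14 snoRNA host genes (13 SNHG genes and DANCR), 4 miRNA host genes, 41 LINC genes and MALAT1. LINC00475 has the biotype of a transcribed unprocessed pseudogene, and the other 59 that of a lncRNA. GAS5, ZFAS1 and NEAT1 were not among the listed genes and are not analysed here.

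RNA-seq was performed on A549 cells, a human lung adenocarcinoma line of epithelial origin, infected with lentiviruses that expressed a control shRNA (shctrl) or an shRNA against the lncRNA USP2-AS1 (shUSP2-AS1). Total RNA was collected 72 h after infection, and polyadenylated RNA was sequenced in 2 biological replicates per group. All 4 libraries thus come from infected cells of 1 line that carry an shRNA, the identity of the USP2-AS1 shRNA behind the knockdown libraries is not given in the sources used here, and p-values measure only the spread between these few libraries. The comparison asks which of these lncRNAs differed in level once USP2-AS1 was knocked down.

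Small nucleolar RNAs (snoRNAs) guide the chemical modification of ribosomal RNA. In vertebrates most of them lie in introns and are cut out of the spliced intron, so that a host gene yields a guide RNA from its intron and a spliced lncRNA from its exons. Many snoRNA host transcripts begin with a pyrimidine tract (a 5′ TOP motif), as ribosomal protein mRNAs do, and many are removed by nonsense-mediated decay once they are translated. In a miRNA host gene, the hairpin of a microRNA is cut out of the primary transcript by the DROSHA and DGCR8 complex. LINC genes are grouped by a naming rule for long intergenic noncoding RNAs and not by function, and few have a settled one.

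In GENCODE release 44 (GRCh38, the build of the deposited table), the 14 snoRNA host genes held 1 snoRNA gene or more each. SNHG14, the long transcript that runs through the imprinted SNORD115 and SNORD116 clusters, held 84. The other 13 held 35 gene records, of which SNHG1 had 7, SNHG12 and SNHG17 had 5 each and SNHG7 had 4. Distinct snoRNAs are fewer than these records. SNORA16A in SNHG12, SNORA17A and SNORA17B in SNHG7 and SNORD60 in SNHG19 are each entered more than once at nearly the same place. Of those 35 and the miRNA gene in DANCR, 35 lay outside the exons of the host's canonical transcript, and SNORA9 in SNHG15 overlapped an exon. The canonical host transcripts had a median of 5.5 exons and a length of 394 to 7005 bases.

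SNHG1 shows the arrangement best. On the minus strand at chr11:62851984-62855953 it has 11 canonical exons, and its intronic snoRNAs include the box C/D guides SNORD25 (chr11:62855564-62855632), SNORD27 (chr11:62855012-62855083) and SNORD30 (chr11:62853663-62853732), read here from GRCh38 with the C box (RUGAUGA, R standing for A or G) and the D box (CUGA) in capitals:
SNORD25: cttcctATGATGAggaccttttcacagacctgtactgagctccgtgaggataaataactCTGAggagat
SNORD27: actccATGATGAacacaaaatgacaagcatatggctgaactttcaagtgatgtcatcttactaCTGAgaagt
SNORD30: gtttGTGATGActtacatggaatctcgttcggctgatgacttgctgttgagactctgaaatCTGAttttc

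SNHG3 (chr1:28505980-28510892, plus strand) carries a pair of related snoRNAs, SNORA73A (chr1:28507366-28507571) and SNORA73B (chr1:28508559-28508762). They are shown because SNORA73B was itself a listed row, with the ACA box of this snoRNA family in capitals. They matched at 192 of 206 aligned positions (93.2%), so that reads of one may be counted for the other:
SNORA73A: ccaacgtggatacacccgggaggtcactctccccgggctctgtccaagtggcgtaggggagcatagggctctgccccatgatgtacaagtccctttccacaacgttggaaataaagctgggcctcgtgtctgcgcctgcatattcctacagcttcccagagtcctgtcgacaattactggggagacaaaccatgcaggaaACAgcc
SNORA73B: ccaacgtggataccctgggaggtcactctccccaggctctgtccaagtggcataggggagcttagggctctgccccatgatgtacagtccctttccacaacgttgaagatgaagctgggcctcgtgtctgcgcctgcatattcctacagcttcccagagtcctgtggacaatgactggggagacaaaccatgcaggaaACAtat

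The microRNAs of the host genes are shown because the host RNAs went in different directions. Their mature sequences, from RefSeq on GRCh38.p14, are written with the seed (bases 2 to 8) in capitals:
miR-31-5p, from MIR31HG: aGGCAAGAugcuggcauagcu
miR-34a-5p, from MIR34AHG: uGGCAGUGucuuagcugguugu
miR-503-5p, from MIR503HG: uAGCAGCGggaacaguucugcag
miR-1915-3p, from MIR1915HG: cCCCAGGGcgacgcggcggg
miR-4449, from DANCR: cGUCCCGGggcugcgcgaggca
No seed was shared among these 5. The libraries did not measure mature microRNAs, which are too short and carry no poly(A) tail.

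USP2-AS1 itself stood at 23.2 and 24.2 normalized read counts in the shctrl libraries and at 2.10 and 6.16 in the shUSP2-AS1 libraries. The knockdown libraries were below both control libraries, with a log2 fold change of -2.39 (SE 0.56, n = 2 per group, limma adjusted p = 0.000597), from 24 and 22 reads against 2 and 7. USP2-AS1 reached the mean of 10 required for testing only through the shctrl libraries. The normalized read count is the number of reads of a gene divided by the size factor of its library. The listed genes drew 10772788 to 14120472 reads per library. Among the marker lists, the epithelial genes KRT7, KRT8, KRT18 and KRT19 were listed (4 of 7, summing to 168132 to 179244 in shctrl and 106336 to 112823 in shUSP2-AS1, a sum led by KRT8 in which KRT19 went the other way, from 3699 and 3254 to 5689 and 5952), 0 of 4 alveolar type II markers, 0 of 3 leukocyte markers and 2 of 4 fibroblast markers, COL1A1 and LUM (263 to 295 against 555 to 634). The fibroblast sum was led by COL1A1 (261 and 293 against 530 and 618). LUM stood at 1.93 and 1.10 in shctrl libraries and at 25.2 and 15.8 in shUSP2-AS1 libraries. It reached the mean of 10 only through the shUSP2-AS1 libraries. Every listed gene had already passed the adjusted p threshold of the authors, so absence from the table does not mean absence from the cells. Whether these shifts have a part in the results below was not tested.

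Across all 6812 genes tested, a gene was called at a limma adjusted p below 0.05 with a log2 fold change of at least 1 in size, on the log2(value + 1) scale. By this rule 13.5% of genes were called lower and 16.1% higher in shUSP2-AS1 cells, and the median log2 fold change was 0.19. Since the table was selected on significance, the libraries of the groups did not overlap for 100% of genes (6811 of 6812), and an adjusted p below 0.05 carries no information of its own for a member. Of the 59 members tested, 14 were called lower and 16 higher, with a median of 0.22. LINC00504 had a mean below 10 and was not tested.

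The host genes and the LINC genes differed in their counts. Of the 18 host genes, 15 had a negative and 3 a positive log2 fold change, and 6 were called lower and 1 higher, with a median of -0.77 (range -1.50 to 1.09). Under upper quartile scaling 3 host genes were called lower. Of the 40 LINC genes tested, 14 had a negative and 26 a positive value, and 8 were called lower and 15 higher, with a median of 0.77 (range -3.20 to 4.70). Among the 5557 tested genes whose mean lay within the range of the host genes, 52.5% had a negative value, 12.2% were called lower and the median was -0.28. Among lncRNAs outside the rule, 9 of 33 antisense lncRNAs were called lower and 8 higher (median -0.54), and 27 of 116 other lncRNAs were called lower and 48 higher (median 0.75). These are counts of genes chosen by name, and no test was made of the difference between the groups.

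**Figure D1:**
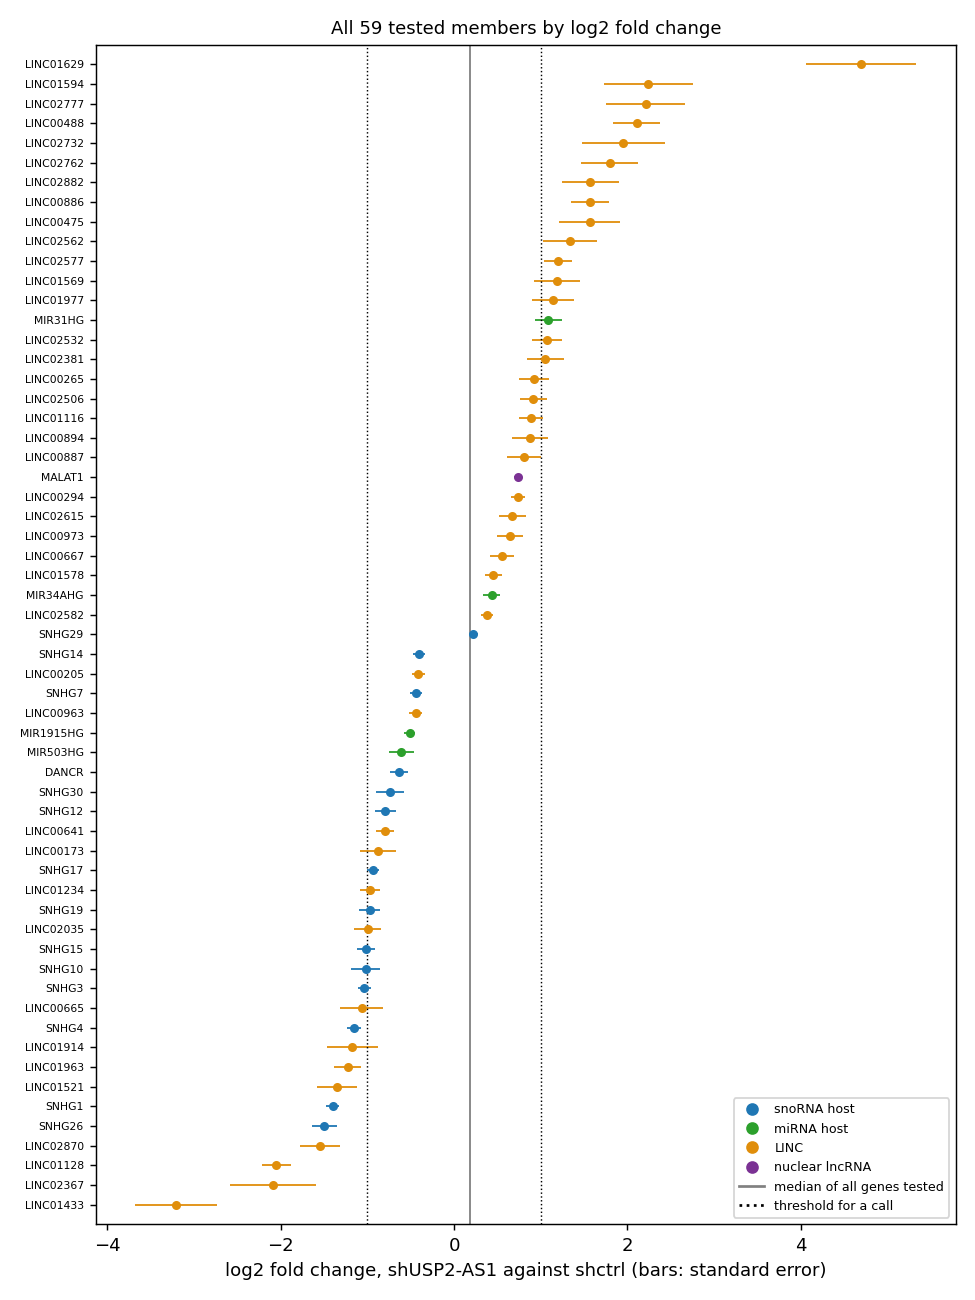
Each point is 1 of the 59 tested members, placed by its log2 fold change in shUSP2-AS1 against shctrl libraries (x axis) with its standard error, and coloured by class. The grey line is the median of all genes tested (0.19) and the dotted lines are the threshold for a call. The snoRNA host genes lie between -1.50 and 0.22, whereas LINC genes fill both ends of the plot.

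The snoRNA host genes were lower in the knockdown, with 13 of 14 negative, 6 called lower, 0 called higher and a median of -0.95. SNHG1 had 1299 and 1246 normalized read counts in shctrl libraries and 465 and 499 in shUSP2-AS1 libraries. Its log2 fold change was -1.40 (SE 0.07, limma adjusted p = 1.33e-11). SNHG26, which hosts SNORD93 in an intron (chr7:22854126-22872945), had the largest fall of the hosts. It went from 266 and 251 to 88.3 and 93.3, a log2 fold change of -1.50 (SE 0.14, limma adjusted p = 2.74e-08), with tight replicates on both sides.

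SNHG4, host of SNORA74A, had 990.4 and 1056 in shctrl libraries against 439 and 481. This was a fall of 1.15 on the log2 scale (SE 0.08, limma adjusted p = 4.46e-10). SNHG3 had 1008 and 919 against 471 and 468, a log2 fold change of -1.03 (SE 0.08, limma adjusted p = 1.56e-09). The knockdown libraries of SNHG3 nearly coincided, and its call rests on a value just past the threshold.

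SNHG15 and SNHG10 also sat at the edge of the threshold. SNHG15 had 538 and 544 in shctrl libraries and 248 and 289 in shUSP2-AS1 libraries (log2 fold change -1.01, SE 0.10). SNHG10, host of SCARNA13, a guide RNA of Cajal bodies, had 153 and 152 against 72.6 and 76.6 (log2 fold change -1.02, SE 0.17). The values of SNHG3, SNHG15 and SNHG10 under upper quartile scaling were -0.97, -0.95 and -0.96, so that none was called.

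SNHG19 and SNHG17 fell just short of that threshold. SNHG19, host of SNORD60 and the shortest of the hosts, had 325 and 313 in shctrl libraries against 166 and 158 (log2 fold change -0.97, SE 0.12). SNHG17, which carries a run of SNORA71 genes, had 1413 and 1486 against 749 and 768 (log2 fold change -0.93, SE 0.07). Their values thus differed little from those of SNHG15 and SNHG10, and the line between called and uncalled hosts is not a gap in the data.

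The remaining snoRNA hosts had smaller values. SNHG12 had 308 and 338 in shctrl libraries against 195 and 178 (log2 fold change -0.79, SE 0.12), and SNHG30, host of SNORD7, had a log2 fold change of -0.74 (SE 0.16). DANCR, first described as an inhibitor of cell differentiation and host of SNORA26, had 437 and 452 against 271 and 300.2 (log2 fold change -0.64, SE 0.10). SNHG7 and SNHG14 stood at -0.44 (SE 0.07) and -0.40 (SE 0.07).

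SNHG29 was the exception among snoRNA hosts. This host of SNORD49A, SNORD49B and SNORD65 had 4368 and 4012 normalized read counts in shctrl libraries and 4835 and 4933 in shUSP2-AS1 libraries, a log2 fold change of 0.22 (SE 0.05), which is close to the median of all genes. It was also the snoRNA host with the highest read count. Per kilobase of listed gene length, SNHG19 had the highest level of all members in shctrl cells (933 normalized read counts per kilobase), followed by SNHG29 (584) and MALAT1 (544). In shUSP2-AS1 cells the order was MALAT1 (907), SNHG29 (681), the LINC gene LINC02582 (481) and SNHG19 (473). The order depends on the length used. SNHG29 has a listed length of 7176 bases and a canonical transcript of 443, where SNHG19 has 342 and 394.

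**Figure D2:**
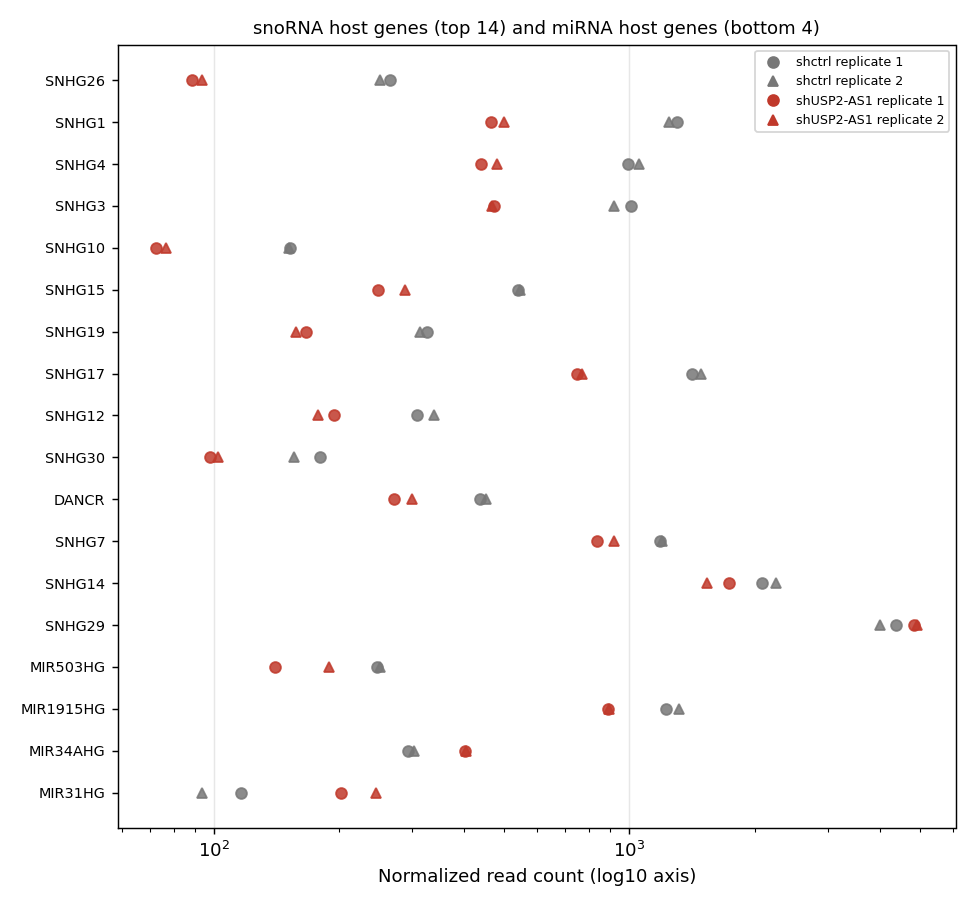
Normalized read counts (x axis, log10 scale) of the 14 snoRNA host genes (top rows) and 4 miRNA host genes (bottom rows) in each library, grey for shctrl and red for shUSP2-AS1, circles for replicate 1 and triangles for replicate 2. The red symbols lie to the left of the grey ones in 15 rows and to the right in SNHG29, MIR34AHG and MIR31HG.

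The miRNA host genes showed no common direction, with 2 negative and 2 positive values. MIR31HG, which contains the hairpin of miR-31, rose from 116 and 93.4 to 202 and 245 (log2 fold change 1.09, SE 0.16, limma adjusted p = 5.09e-06), but under RLE scaling it stood at 0.97 and was not called. MIR34AHG, the host of the p53 target miR-34a, had 293 and 303 in shctrl libraries against 403 and 403, a log2 fold change of 0.43 (SE 0.10). MIR34A overlaps an exon of its host, and the other miRNA genes lie outside the canonical exons.

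MIR1915HG had 1225 and 1315 against 885 and 893 (log2 fold change -0.51, SE 0.07). MIR503HG, the host of the cell cycle regulator miR-503, had 246 and 251 against 140 and 189 (log2 fold change -0.61, SE 0.15). Its knockdown libraries were spread more widely than its control libraries, and both lay below them.

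In 2 of the host genes the small RNA had a row of its own. MIR1915 stood at 25.1 and 18.7 in shctrl libraries and at 3.15 and 3.52 in shUSP2-AS1 libraries (log2 fold change -2.39, SE 0.55, limma adjusted p = 0.000504). It passed the filter on the mean only through the shctrl libraries. SNORA73B stood at 40.6 and 46.2 against 19.98 and 13.2 (log2 fold change -1.36, SE 0.34, limma adjusted p = 0.000956). Both fell, as their hosts did, with -0.51 for MIR1915HG and -1.03 for SNHG3. SNORA73B also lies within the protein-coding gene RCC1 on the same strand, which had -1.33. The reads of MIR1915 are not a measure of the mature microRNA. For SNORA73B, reads of a precursor that covers the locus and reads of the mature snoRNA cannot be told apart in these libraries.

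The annotated first bases of the hosts were compared because TOP starts mark genes of the translation machinery. RefSeq promoters (GRCh38.p14, 250 bases before to 50 after each start) were matched for 48 of the 60 members, 13 of them snoRNA hosts. A strict TOP start, a C at the first base followed by at least 4 C or T, was present in 3 of 13 snoRNA hosts (23.1%), against 4.04% of the 27305 promoters in the table. With the run of pyrimidines allowed to begin up to 5 bases on either side of the start, a search added after the data were seen, the counts were 6 of 13 (46.2%) against 21.1%. The windows of those 6 hosts, 20 bases before to 40 bases from the start, are shown with the run in capitals:
SNHG4, chr5:139274081-139274140, plus strand: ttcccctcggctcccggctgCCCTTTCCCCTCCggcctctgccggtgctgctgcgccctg
SNHG12, chr1:28581834-28581893, minus strand: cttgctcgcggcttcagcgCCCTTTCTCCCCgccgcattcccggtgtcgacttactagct
SNHG19, chr16:2155319-2155378, minus strand: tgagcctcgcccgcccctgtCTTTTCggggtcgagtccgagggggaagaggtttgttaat
SNHG17, chr20:38435289-38435348, minus strand: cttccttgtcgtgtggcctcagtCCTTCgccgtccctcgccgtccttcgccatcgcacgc
SNHG7, chr9:136728145-136728204, minus strand: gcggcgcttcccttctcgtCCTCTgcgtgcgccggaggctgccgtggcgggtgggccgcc
DANCR, chr4:52712374-52712433, plus strand: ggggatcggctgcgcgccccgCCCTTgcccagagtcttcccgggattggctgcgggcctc
These 6 hosts had log2 fold changes from -1.15 (SNHG4) to -0.44 (SNHG7), inside the range of the snoRNA hosts without such a run. The RefSeq start lay within 1000 bases of the start in the deposited table for 37 of the 48 matched members and 11 of the 13 snoRNA hosts, the others being SNHG12 (1259 bases away) and SNHG14 (154975 bases away). Among those 11 hosts, 2 had a strict TOP start and 5 a run near the start. A match in these letters is a description of the annotated start, not of the start used in A549 cells.

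The same promoters were searched on both strands for the E-box CACGTG, the sequence bound by MYC and MAX, and for the E2F motif TTTSSCGC, in which S is C or G. The E-box was found in SNHG7, SNHG30 and LINC02381 (3 of 48, 6.25%, against 7.43% of all promoters) and the E2F motif in SNHG1 and SNHG17 (2 of 48, 4.17%, against 3.33%). Among the 13 snoRNA hosts alone each motif was found in 2 (15.4%). The promoter of SNHG1 is shown with its E2F match in capitals (chr11:62855836-62856135, minus strand):
SNHG1: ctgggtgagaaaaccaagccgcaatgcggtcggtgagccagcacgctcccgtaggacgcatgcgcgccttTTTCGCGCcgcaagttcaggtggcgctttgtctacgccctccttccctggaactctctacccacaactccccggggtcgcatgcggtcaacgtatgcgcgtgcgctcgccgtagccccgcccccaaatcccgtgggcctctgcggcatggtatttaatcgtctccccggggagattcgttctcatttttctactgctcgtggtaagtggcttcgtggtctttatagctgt
That window also holds the start of SLC3A2, the heavy chain of an amino acid transporter, which is transcribed away from SNHG1 from a GENCODE start 82 bases away. SLC3A2 had 19560 and 18636 normalized read counts in shctrl libraries against 20055 and 21621, a log2 fold change of 0.13 (SE 0.05, limma adjusted p = 0.0288). SNHG1 thus fell, whereas SLC3A2, on the other side of the window, stood near the median of all genes (0.19) and was not called.

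Positions relative to protein-coding genes differed between the classes. Of the 60 members, 45 overlapped no protein-coding gene. Of the 41 LINC genes 36 were free of any overlap, but of the 14 snoRNA hosts 9 overlapped one. The sources used here do not say whether reads were counted by strand, so that reads of a member and of a gene over it, on the opposite strand in 12 members and on the same strand in 6, may be hard to assign.

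SNHG3 overlaps RCC1, the exchange factor of the GTPase RAN, on the same strand. RCC1 had 1953 and 1859 in shctrl libraries against 766 and 753 (log2 fold change -1.33, SE 0.06, limma adjusted p = 3.31e-12). Both genes fell, and the reads of SNHG3 cannot be told apart from those of longer RCC1 transcripts. MIR31HG overlaps the interferon gene IFNE, which rose from 22.2 and 28.6 to 68.4 and 73.1 (log2 fold change 1.45, SE 0.27). LINC00294 overlaps TCP11L1 (log2 fold change 0.95, SE 0.07). SNHG4 overlaps MATR3 on the same strand, and SNHG14 overlaps SNRPN and an unnamed gene, none of which was listed. Reads of SNHG4 and SNHG14 may thus also be hard to assign.

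On the opposite strand, SIL1 had a log2 fold change of 0.73 (SE 0.08) where its partner SNHG4 fell. UBE3A, a ubiquitin ligase gene whose paternal copy SNHG14 silences in neurons, had -0.82 (SE 0.07), beside -0.40 for SNHG14. GLRX5 had -0.38 (SE 0.06) beside SNHG10, and CSTF3 had -0.60 (SE 0.08) beside LINC00294. Of the 5 members that lie head to head with a protein-coding gene, starts within 1000 bases, SNHG1 and LINC01521 had a listed partner. For LINC01521 it was PATZ1, a zinc finger gene with a start 431 bases away (log2 fold change -0.69, SE 0.09), and both values were negative.

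**Figure D3:**
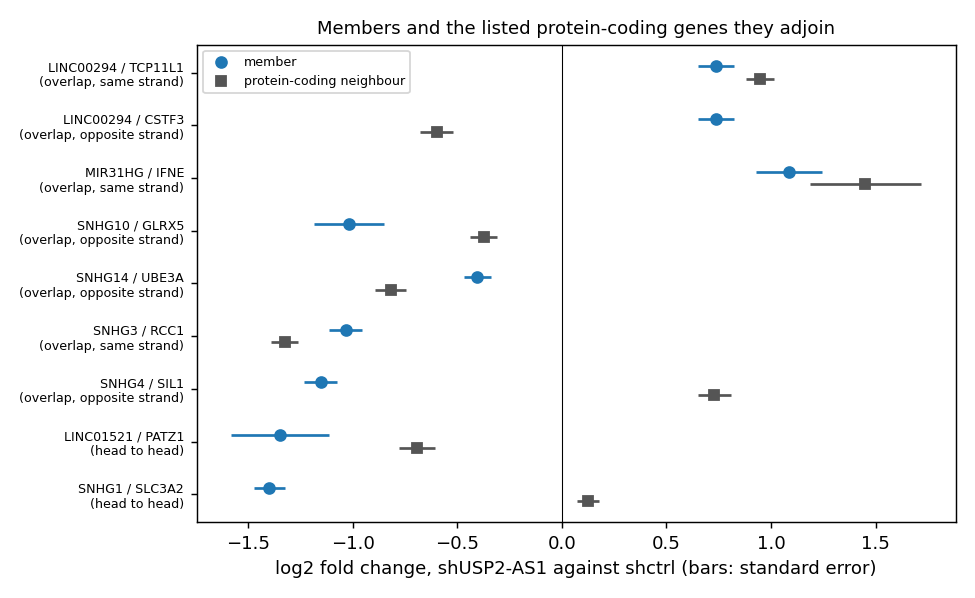
Log2 fold changes (x axis) with standard errors of lncRNAs (blue circles) and of the listed protein-coding genes that overlap them or start beside them in head-to-head position (grey squares). The 2 values have the same sign in 6 of the 9 pairs and opposite signs for LINC00294 with CSTF3, SNHG4 with SIL1 and SNHG1 with SLC3A2.

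LINC genes were measured at lower levels than the hosts, with a median of 78.7 normalized read counts against 385. Per kilobase of listed gene length the median was 22.7, against 98.1 for snoRNA hosts and 131 for all genes tested. The calls of LINC genes lay mostly among the low ones. Of the 20 LINC genes at or below their median, 6 were called lower and 13 higher (65.0%), and among all 590 tested genes at or below that level the shares were 30.3% and 65.9%. Of the 20 above it, 2 were called in each direction, against 11.9% and 11.4% of the 6222 genes above that level. The LINC genes thus had about the same shares of calls as all listed genes of their level. Their signs differed above that level, where 35.0% of LINC genes were negative with a median of 0.60. All genes above it had 51.0% and -0.21. At or below that level the LINC genes had 35.0% and 1.27, against 31.9% and 1.43 for all genes. These differences were not tested.

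**Figure D4:**
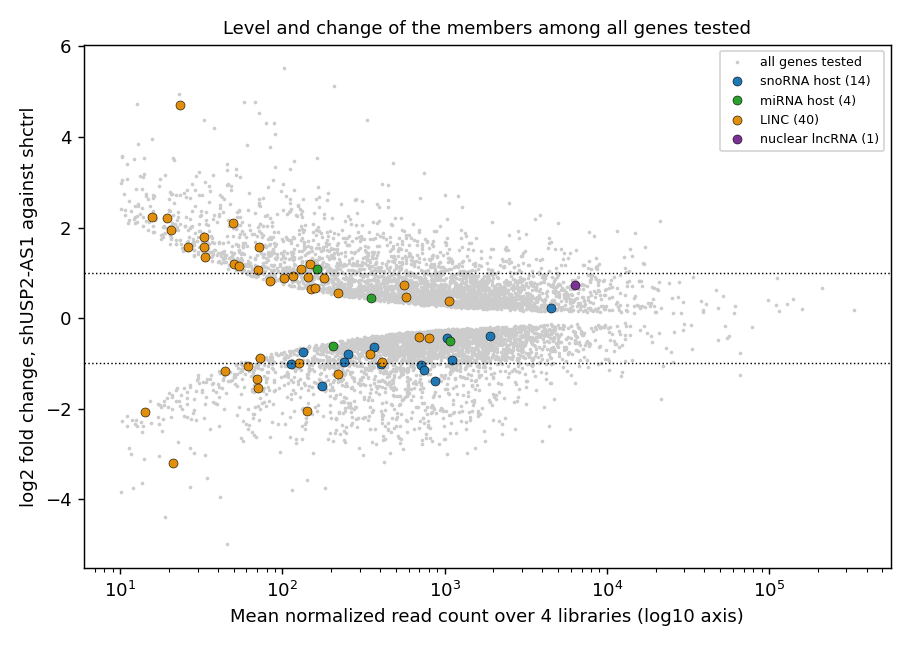
Log2 fold change (y axis) against the mean normalized read count over the 4 libraries (x axis, log10 scale) for all 6812 genes tested (grey) and for the members by class. The empty wedge around 0 widens towards low counts, as the table lists only genes that passed the test of the authors, and the low LINC genes lie on both sides of it. The snoRNA host genes lie at higher counts and below 0 except for SNHG29.

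The LINC genes that rose included several that were low in control cells. LINC00488 went from 17.4 and 18.7 normalized read counts to 73.6 and 88.9 (log2 fold change 2.11, SE 0.27, limma adjusted p = 1.41e-06), and LINC02762 from 16.4 and 12.1 to 53.6 and 49.3 (1.80, SE 0.33). LINC00886 went from 37.7 and 34.1 to 107 and 109 (log2 fold change 1.57, SE 0.22, limma adjusted p = 2.64e-06), with replicates that nearly coincided. LINC02882, which spans 582286 bases of chromosome 12, went from 14.5 and 17.6 to 58.9 and 41.4 (1.57, SE 0.33).

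LINC02577 had the highest mean of the named LINC genes that were called higher, at 87.0 and 92.3 in shctrl libraries and 183 and 233 in shUSP2-AS1 libraries (log2 fold change 1.196, SE 0.16). LINC02562 (1.34, SE 0.31), LINC01569 (1.19, SE 0.26) and LINC01977 (1.14, SE 0.24) rose as well, each from below 40 normalized read counts in both control libraries. Without shctrl replicate 1 the value of LINC01569 was 0.93 and it was not called. No function of these genes is given here, since their names record only that they were annotated as intergenic.

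LINC01128 had the largest fall among LINC genes with a mean of at least 30. At chr1:825138-859446 on the plus strand, it went from 224 and 232 to 50.5 and 58.1 (log2 fold change -2.05, SE 0.17, limma adjusted p = 3.5e-09). LINC02870 went from 92.8 and 119 to 33.7 and 37.0 (-1.55, SE 0.23, limma adjusted p = 5.35e-06), and LINC01521 from 108 and 92.3 to 32.6 and 45.8 (-1.35, SE 0.23). The group ranges of these genes did not overlap, which was a condition for naming them and held for 6811 of the 6812 genes tested.

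LINC01963 had 313 and 304 in shctrl libraries against 110 and 156 (log2 fold change -1.23, SE 0.15). LINC01914 had 54.1 and 69.2 against 21.0 and 33.5 (-1.18, SE 0.29), and LINC00665 had 81.2 and 84.6 against 31.5 and 48.4 (-1.06, SE 0.25). In these 3 genes shUSP2-AS1 replicate 1 was the lower of the knockdown libraries, and without it the values were -0.98, -0.85 and -0.76, so that none was called.

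**Figure D5:**
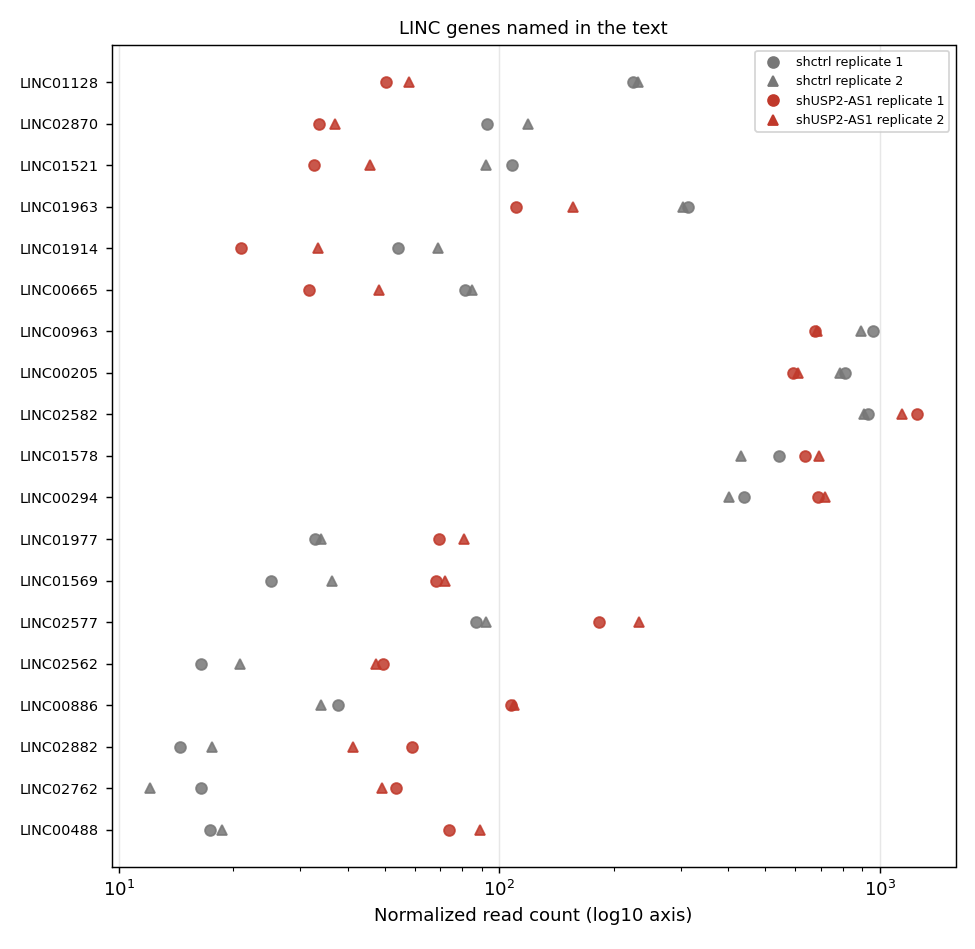
Normalized read counts (x axis, log10 scale) in each library of the LINC genes named for their change or their level, ordered by log2 fold change from LINC01128 (-2.05) to LINC00488 (2.11). Grey symbols are shctrl and red symbols shUSP2-AS1, circles replicate 1 and triangles replicate 2, and the 5 genes in the middle rows are those with the highest levels.

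The LINC genes with the highest read counts were not called in either direction. LINC02582 had 933 and 910 in shctrl libraries against 1253 and 1147 (log2 fold change 0.38, SE 0.07), and LINC00963 had 961 and 890 against 674 and 685 (-0.44, SE 0.07). LINC00205 stood at -0.41 (SE 0.08), LINC01578 at 0.45 (SE 0.10) and LINC00294 at 0.74 (SE 0.09). LINC01578 is CHASERR in GENCODE, a transcript known to restrain CHD2, which it overlaps on the same strand in this annotation, and LINC00205 is read head to head with POFUT2 from a start 139 bases away.

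The folds of the LINC genes with the fewest reads were wide in counting error, and these genes were picked out after their values were seen. LINC01629 drew 2 reads in the shctrl libraries together and 95 in the shUSP2-AS1 libraries, a ratio of 44.3 (exact 95% interval 11.9 to 371, counting error only). LINC01433 drew 76 against 7, which is 11.6-fold lower (5.39 to 29.95), and LINC02367 46 against 10, which is 4.94-fold lower (2.46 to 10.97). LINC01594 drew 9 against 57 (ratio 5.90, 2.90 to 13.6) and the untested LINC00504 2 against 33 (15.4, 3.93 to 132). The intervals are several fold wide, they treat reads and not libraries as the units, and since every listed gene had passed the test of the authors they are no test of a difference. LINC01629 and LINC01594 passed the filter on the mean only through the knockdown libraries. The same was true of LINC02777 (mean 6.55 in shctrl, 32.5 in shUSP2-AS1) and LINC02732 (8.48 and 32.6). LINC01433 (38.97 and 3.34) and LINC02367 (23.7 and 4.83) passed it only through the control libraries. All of these count among the called LINC genes, and LINC01433 and LINC01629 set the ends of the LINC range (-3.20 and 4.70).

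MALAT1, the abundant RNA of nuclear speckles, had 4744 and 4857 normalized read counts in shctrl libraries and 8271 and 7752 in shUSP2-AS1 libraries. Its log2 fold change was 0.74 (SE 0.05, limma adjusted p = 3.44e-10), below the threshold for a call. The transcript ends in a triple helix with a genome-encoded A-rich tract in place of a poly(A) tail, so that its recovery by poly(A) selection need not equal that of other RNAs.

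The proteins that work with these RNAs were counted from lists chosen by function. Of the 8 core proteins of snoRNPs, the particles that snoRNAs form, 7 were listed and all 7 had negative values (median -0.76), where 49.4% of all genes tested had one and 13.5% were called lower. NOP56, of the box C/D particle, fell from 6053 and 6000 to 2221 and 2498 (log2 fold change -1.36, SE 0.06, limma adjusted p = 6.39e-13), and DKC1, the pseudouridine synthase of the box H/ACA particle, from 3017 and 3030 to 1326 and 1368 (-1.17, SE 0.06). The other 5, NOP58, SNU13, NHP2, NOP10 and GAR1, were not called, and FBL was not in the table.

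Of 11 factors of nonsense-mediated decay 5 were listed, with 0 called and a median of -0.55, beside 13.5% called lower and 16.1% higher of all genes tested. Each of the 6 paraspeckle proteins was listed with a negative value (median -0.80), and RBM14 was called (-1.07, SE 0.06). Of 9 genes of microRNA processing 5 were listed: the argonaute gene AGO2 fell (-1.09, SE 0.08; -0.96 and not called without shctrl replicate 2), AGO4 rose (1.32, SE 0.12), and DROSHA, DGCR8 and XPO5 were not called. In bulk RNA, fewer cells that express a gene and less RNA per cell cannot be told apart for any of these genes.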

How the data were processed

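RNA-seq libraries of A549 cells (2 shctrl, 2 shUSP2-AS1) were grouped by their labels, and the table columns scr and sh216 were assigned to shctrl and shUSP2-AS1 by name and number. Per the labels, the authors' processing notes name HISAT2 2.0.5, featureCounts 1.5.0-p3, DESeq2 1.20.0 and hg38; strandedness of the counting is not given in the sources used here. The deposited values are a signal normalized by the authors, that is, reads per gene over the size factor of the library, for genes with an adjusted p-value below 0.05 in their own test (0 listed genes at or above). The deposited log2 fold change and p-value columns hold the authors' comparison and were not used as results.

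Dividing by the value of 1 read (0.966, 1.10, 1.05 and 0.880) gave whole reads for 100% of values within 0.01 reads. These reads cover the listed genes, not whole libraries, and a gene with few of them is measured less precisely. The main test was limma 3.58.1 (R 4.3.3; lmFit, eBayes with trend) on log2(value + 1) for genes with a mean of at least 10, with Benjamini-Hochberg adjustment over 6812 genes. A fold change on this scale understates that of low genes. edgeR 4.0.16 and DESeq2 1.42.0 were run on the recovered reads as alternatives, with other scalings, filters, a pseudocount of 0.1, a test against a fold change of 2, the replicate block and each library left out. The script was tested on simulated data. Intervals of read ratios are exact binomial (scipy 1.17.1).

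Members and lists were chosen with earlier results of these data known. Named are USP2-AS1, the genes the rule spells out, all host genes, up to 8 called LINC genes per direction with a mean of at least 30 and no overlap between groups (6 were lower), the 5 LINC genes of highest mean and the called genes of the protein lists. GENCODE release 44 gave positions, and RefSeq tables (GRCh38.p14) promoters and mature miRNAs. Chi-square per degree of freedom between replicates was 3.75 in shctrl and 3.84 in shUSP2-AS1, so that no library was a copy of another.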

Additional observations from a re-analysis of the deposited data

How the results depend on the processing

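The number of calls depends on how near many members lie to a log2 fold change of 1. RLE scaling of the recovered reads shifted the median of all genes by -0.12 and moved the share of lower calls among called members from 46.7% to 58.1% (all genes, 45.6% to 55.0%). Under it 0 host genes were called higher, the host median was -0.88 and the LINC median 0.66, and SNHG17 (-1.05) and SNHG19 (-1.09) were called while MIR31HG (0.97) was not. Upper quartile scaling left 3 host genes called lower (host median -0.71, LINC median 0.83), without SNHG3 (-0.97), SNHG15 (-0.95) and SNHG10 (-0.96). The RLE, TMM and upper quartile factors could draw only on genes that had already passed the test of the authors. Factors of this kind presume that most genes used are unchanged, which cannot be checked in a table selected for change. Calls gained or lost under them show how close a member lies to the threshold, and not which scaling is right. A limma test against a fold change of 2 left 4 members lower and 2 higher (host genes 2 and 0, LINC genes 2 and 2), and USP2-AS1 (-2.39) had an adjusted p of 0.0723. Asking for 10 reads in every library gave a LINC median of 0.71 and 24 member calls, all shared with the main 30. Under TMM scaling, edgeR, DESeq2, a pseudocount of 0.1 and no filter, 31 members were called, 30 of them shared. All 59 members tested passed the adjusted p threshold in the main test, so that a call there rested on the fold change. These settings take the fold change from the same reads, and the shared calls thus add little.

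With a library left out, the lone library of its group is assumed to vary like the others. Members called lower then ranged from 10 to 17 and higher from 15 to 16, host genes lower from 5 to 7 and higher from 0 to 1, LINC genes lower from 5 to 10 and higher from 14 to 16, the host median from -0.80 to -0.76, the LINC median from 0.75 to 0.78 and USP2-AS1 from -2.99 to -1.78. LINC genes called lower were 5 without shUSP2-AS1 replicate 1, which also ended the calls of SNHG15 (-0.90) and SNHG10 (-0.98). SNHG3 (-0.97) and LINC01569 (0.93) were lost without shctrl replicate 1, and MIR31HG without shctrl replicate 2 (0.93) or shUSP2-AS1 replicate 2 (0.95). No named value changed sign under these alternatives, and the cause of lost calls was not tested.

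Fitting the replicate number as a block called the same 30 members (14 lower and 16 higher). The numbers name the samples only: the replicate differences of the groups correlated at -0.04 across genes.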

Other observations

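Small RNA rows were also listed outside the host genes of the table, in the unlisted hosts ZFAS1 and SNHG25 and in the listed protein-coding genes SNX5 and CAPN15. CAPN15 holds the miRNA rows MIR5587 (log2 fold change -2.35, SE 0.53) and MIR3176 (-1.52, SE 0.37), which both fell. SNORD12C, which lies in ZFAS1, had 27.1 and 25.3 normalized read counts in shctrl libraries and 3.15 and 6.16 in shUSP2-AS1 libraries (log2 fold change -2.32, SE 0.51, limma adjusted p = 0.000338). Like MIR5587, it passed the filter on the mean only through the shctrl libraries. SNORD104, which lies in SNHG25, had 41.5 and 85.7 against 22.1 and 22.9 (-1.37, SE 0.33, limma adjusted p = 0.000684), with control libraries far from each other. SNORD17, in the protein-coding gene SNX5, had 124 and 136 against 50.5 and 45.8 (-1.41, SE 0.19, limma adjusted p = 2.61e-06). SNORD12C, SNORD104, SNORD17 and SNORA73B were the listed snoRNA rows that lay within another gene. Each had a negative value, as 49.4% of all genes tested had. Since these few rows were selected on significance, the count is no support for a common fall. The snoRNA rows rest on 3 to 128 reads per library. The libraries were selected for poly(A) and so do not measure mature snoRNAs in full.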
